A study of Mus musculus with 12 samples.

Results

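The SOX transcription factors were followed through 10 genes, *Sox2*, *Sox4*, *Sox5*, *Sox6*, *Sox7*, *Sox9*, *Sox11*, *Sox12*, *Sox13* and *Sox18*, taken by their symbols in the scanner files and with every probe of each gene. They were 10 of the 27962 gene names on a mouse whole genome array and had 24 probes on 33 spots. The cells were C57MG, a single mouse mammary epithelial line, moved from growth medium with serum and insulin into plain DMEM and treated for 24 h. The 4 groups received the carrier protein BSA, recombinant human Rspo2 at 100 ng/ml, recombinant mouse Wnt3a at 100 ng/ml, or both proteins at these doses (Rspo2/Wnt3a), with 3 monolayers in each group and 1 array for each monolayer.

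SOX proteins carry an HMG box that binds and bends DNA, and their subgroups differ in the partners they recruit. The SOXC proteins Sox4, Sox11 and Sox12 are transcriptional activators of embryonic and progenitor cells. Sox9, a SOXE protein, drives cartilage formation and is also found in progenitor cells of the mammary gland, gut and hair follicle. The SOXD proteins Sox5, Sox6 and Sox13 have no activation domain of their own, Sox7 and Sox18 (SOXF) are factors of vascular endothelium, and Sox2 (SOXB) maintains pluripotent and neural progenitor cells. Wnt3a stabilizes β-catenin, R-spondins such as Rspo2 amplify the response to Wnt proteins, and several SOX proteins can bind or restrain β-catenin or its TCF/LEF partners.

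Signal was found for 4 of the 10 genes, and all of the changes that passed the test were decreases. *Sox9* fell with Rspo2/Wnt3a to between 41.3% and 49.3% of the BSA level on its 3 probes, while neither protein alone gave a change of *Sox9* that passed the test, 1 of the 3 probes being near the limit with Wnt3a (adjusted p = 0.0524). *Sox4* and *Sox11* passed the test with Wnt3a alone too, falling to 61.1% and 57.5% of the BSA level and standing at 57.7% and 60.4% with Rspo2/Wnt3a. For *Sox11* this rests on 1 detected probe of 6. The 3 *Sox9* probes stood at 64.6% to 86.4% with Wnt3a alone, and the difference between the genes was not tested. *Sox12* was detected near background, showed no change past the test and turned in sign with the processing. In RNA from whole monolayers, fewer cells that express a gene and less RNA per cell cannot be told apart.

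The 12 arrays lay on 3 slides, and the slides were not balanced over the groups. All 3 BSA arrays shared slide 1 with Rspo2 replicate 1. The remaining Rspo2 arrays (replicates 2 and 3) were on slide 2 together with replicates 1 and 2 of Wnt3a, and Wnt3a replicate 3 was on slide 3 together with all 3 Rspo2/Wnt3a arrays. Neither Wnt3a nor Rspo2/Wnt3a thus had a BSA array on its slide, so values with slide as a term of the model and differences within a slide are given beside the results on SOX genes. With this layout the fit with slide reaches BSA by adding differences within slides, so these values are not separate evidence. The arrays of a group correlated with each other at 0.989 to 0.996 over the detected probes, and between 51.3% and 64.2% of probes were well above background on an array, the highest share being that of BSA replicate 1.

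Detection required the scanner software's mark for signal well above background on each of the 3 arrays of 1 or more groups. Of the 24 probes 6 were detected, namely 3 of *Sox9* and 1 each of *Sox4*, *Sox11* and *Sox12*, and each of these 6 was well above background on 12 of 12 arrays and saturated on 0. The other 18 probes gave 216 values with intensities between 3.08 and 128 (median 5.56), of which 8 were well above background. *Sox2*, *Sox7*, *Sox13* and *Sox18* were well above background on 0 of 12 arrays with any of their probes. Each of the remaining values has an upper bound only, the lowest intensity that passed as well above background on each array, 15.4 to 43.8.

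**Figure D1:**
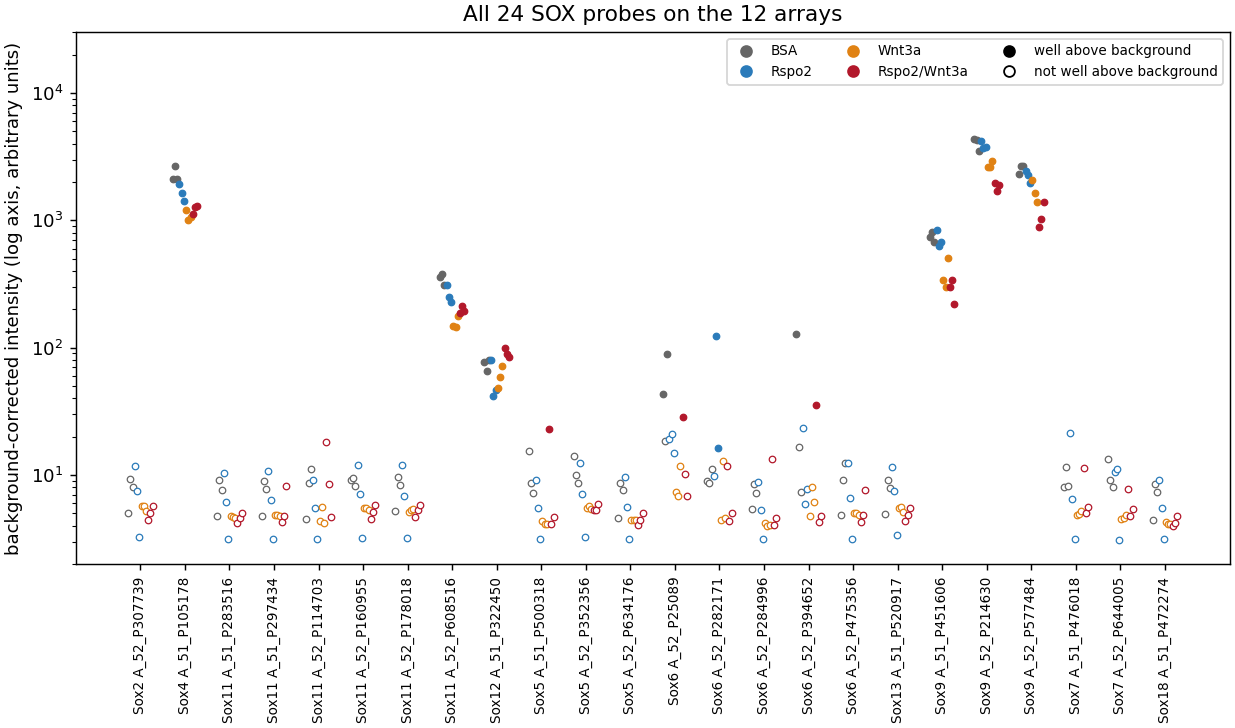
Background-corrected intensity (log axis, arbitrary units) of the 24 SOX probes on each of the 12 arrays, in the order of the SOX subgroups, with colours for the 4 groups and filled points where the spot was well above background. The 6 detected probes of *Sox4*, *Sox11*, *Sox12* and *Sox9* are filled on all 12 arrays, and 8 of the 216 points of the other 18 probes are filled.

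*Sox9* lies on chromosome 11 (chr11:112782210-112787757 in GRCm38.p6, plus strand) and was read by 3 probes along its transcript. By the positions in the scanner files, probe A_51_P451606 was the nearest to the 5′ end and spanned 853 bases of genome, so that it crosses an exon junction, with probe A_52_P577484 starting 2698 bases and probe A_52_P214630 starting 4499 bases further downstream. The last of these was printed 10 times on each array. Levels are log2 intensities, with the 75th percentile of each array set to 0.

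With the probe printed 10 times, A_52_P214630, the *Sox9* level was 2.19, 1.90 and 1.70 on the BSA arrays, 2.03, 2.06 and 2.26 with Rspo2, 1.54, 1.76 and 1.86 with Wnt3a, and 1.06, 0.82 and 0.85 with Rspo2/Wnt3a. The 3 Rspo2/Wnt3a arrays were the lowest of the 12, and the Rspo2 and the Wnt3a arrays each overlapped the BSA arrays. Among the 10 spots of an array the SD was 0.039 to 0.109, and the highest single spot with Rspo2/Wnt3a, 1.35, lay under the lowest single spot with Wnt3a, 1.47. These spots repeat the measurement of 1 RNA and are not replicates of the treatment.

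With probe A_52_P577484 the *Sox9* level was 1.29, 1.22 and 1.30 with BSA, 1.24, 1.36 and 1.30 with Rspo2, 1.21, 1.08 and 0.79 with Wnt3a, and −0.08, 0.11 and 0.40 with Rspo2/Wnt3a. Again the Rspo2/Wnt3a arrays were the lowest, under all arrays of the other 3 groups. The Wnt3a arrays also lay under the BSA arrays, by a small margin (highest 1.21 against lowest 1.22). With the junction probe A_51_P451606 the level was −0.36, −0.51 and −0.69 with BSA, −0.28, −0.48 and −0.22 with Rspo2, −1.40, −1.36 and −0.68 with Wnt3a, and −1.64, −1.49 and −2.26 with Rspo2/Wnt3a. On this probe Wnt3a replicates 1 and 2 were already low, whereas Wnt3a replicate 3 lay at the level of the BSA arrays.

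**Figure D2:**
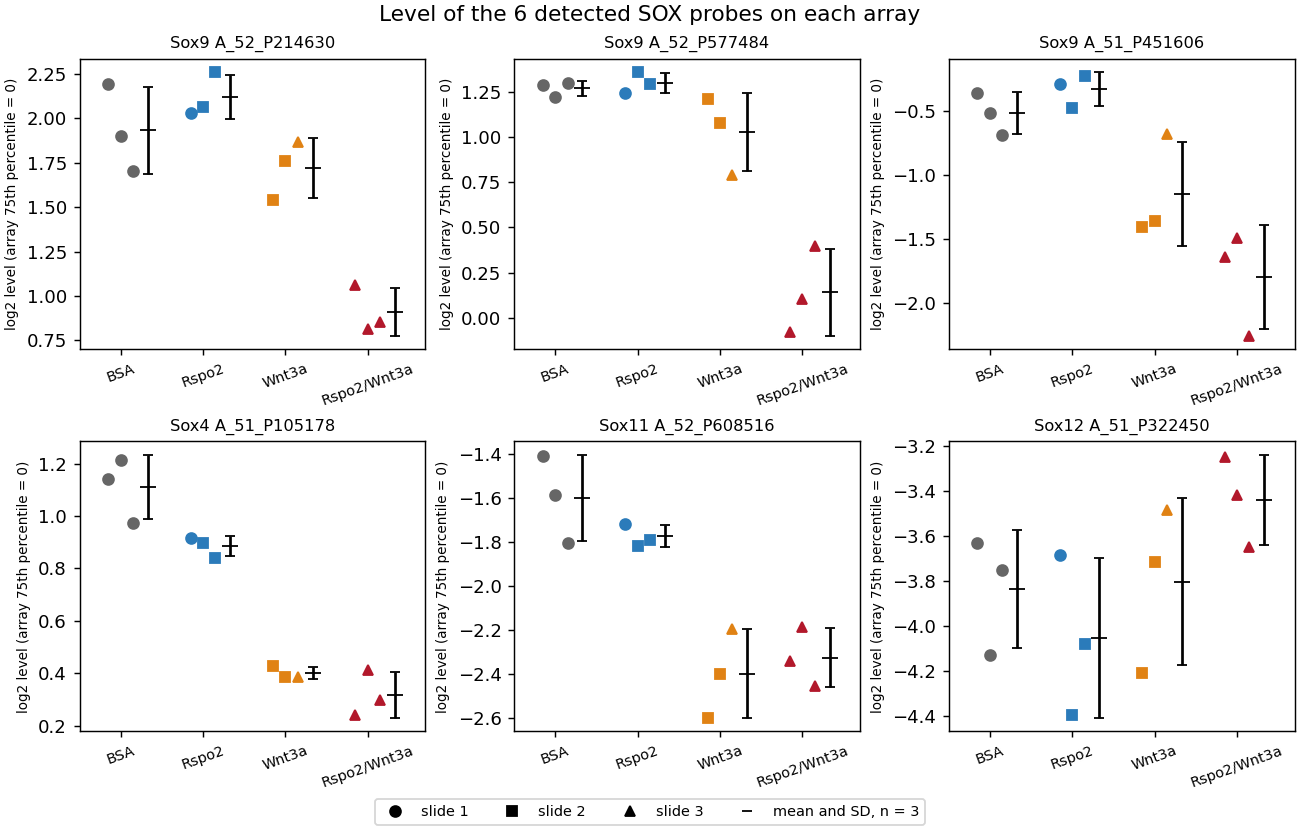
Level (log2 intensity, 75th percentile of each array set to 0) of the 6 detected SOX probes on each array, by group, with the slide shown by the symbol and the mean and SD of each group of 3 as bars; the axes differ between panels. For *Sox9* the 3 Rspo2/Wnt3a arrays lie under the other 9 on each probe, whereas for *Sox4* and *Sox11* the Wnt3a and Rspo2/Wnt3a arrays lie together under the BSA arrays.

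The changes were tested with limma over the 22751 detected probes of the array, with adjustment by the Benjamini-Hochberg method in each comparison, and a call required both an adjusted p under 0.05 and a 2-fold difference. With Rspo2/Wnt3a against BSA, 3 of the 6 SOX probes were called, all of them lower and all of *Sox9*, beside 5.08% of all probes called (3.79% lower). The log2 changes were −1.28 ± 0.22 (SE, adjusted p = 0.00138) on A_51_P451606, −1.13 ± 0.13 (adjusted p = 0.000112) on A_52_P577484 and −1.02 ± 0.14 (adjusted p = 0.000274) on A_52_P214630. At adjusted p under 0.05 with no fold requirement 5 of the 6 probes were lower, beside 39.2% of all probes in either direction and 17.3% lower. The groups did not overlap for 5 of the 6 probes, as for 54% of all probes, and the median change of the 6 probes was −0.91 against 0.04 over all probes. The paper had already listed *Sox9* as lower with Rspo2/Wnt3a from these same arrays, among genes it also measured by qRT-PCR. The 3 calls of *Sox9* are thus no separate evidence for that decrease.

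With slide as a term the *Sox9* decreases kept their direction but lost the call. They were −1.91 (adjusted p = 0.0625), −0.85 (adjusted p = 0.166) and −1.36 (adjusted p = 0.0665) in the same order of probes, and 0 of the 6 SOX probes were called in that limma fit, in which 2.2% of all probes were called and 5 of the 6 SOX probes had an unadjusted p under 0.05. On slide 3, the mean of the 3 Rspo2/Wnt3a arrays was below Wnt3a replicate 3 by a log2 difference of −1.11, −0.65 and −0.95 in the same order. This is a comparison with 1 array, and the fit with slide holds the same differences. The call of probe A_52_P214630 sat at the 2-fold limit and was lost without BSA replicate 1 (−0.89), without Rspo2/Wnt3a replicate 2 (−0.97) and without Rspo2/Wnt3a replicate 3 (−0.99), as well as with the normexp background correction (−0.93).

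With single proteins 0 of the 3 *Sox9* probes passed the test. With Rspo2 the log2 changes of the 3 probes lay between 0.03 and 0.19 (adjusted p 0.356 to 0.889), and the 95% confidence intervals together ran from −0.30 to 0.68. With Wnt3a they were −0.63 ± 0.22 on A_51_P451606 (adjusted p = 0.0524), −0.24 ± 0.13 on A_52_P577484 (adjusted p = 0.179) and −0.21 ± 0.14 on A_52_P214630 (adjusted p = 0.259). The junction probe was close to the limit and passed it with the 75th percentile computed from bright probes alone, those that cleared background on each array (−0.75, adjusted p = 0.0232), when only those probes were tested (adjusted p = 0.0417), without Wnt3a replicate 3 (−0.86, adjusted p = 0.0129) and without Rspo2/Wnt3a replicate 3 (adjusted p = 0.0276), while with slide as a term it was −0.80 (adjusted p = 0.362). It gave a larger change with Wnt3a than the 2 downstream probes did, and the difference between probes was not tested. On slide 2, the mean of Wnt3a replicates 1 and 2 differed from that of Rspo2 replicates 2 and 3 on all 3 probes. The log2 differences were −1.03 on A_51_P451606, −0.18 on A_52_P577484 and −0.51 on A_52_P214630, against Rspo2 and not against BSA.

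Adding Rspo2 to Wnt3a was tested as Rspo2/Wnt3a against Wnt3a. Of the 6 SOX probes 0 were called in limma, beside 0.747% of all probes (0.334% lower), while 2 had an adjusted p under 0.05, both lower and both of *Sox9*, beside 4.27% of all probes (2.49% lower). They were A_52_P577484, at −0.88 ± 0.13 (adjusted p = 0.00322), and A_52_P214630, at −0.81 ± 0.14 (adjusted p = 0.00669). In all 3 had an unadjusted p under 0.05, these 2 and the junction probe at −0.65 ± 0.22 (adjusted p = 0.152), and the methods' t-test called 0. With slide as a term the lowest adjusted p of a SOX probe in this comparison was 0.0574, for A_52_P214630 at −0.95, and with the normexp correction the 2 probes had an adjusted p of 0.126 and 0.309.

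For the interaction, the changes with the single proteins were subtracted from the change with both, so that it is negative where the combination lowered a gene beyond the sum of the single treatments on the log2 scale. *Sox9* gave −0.99 ± 0.19 (adjusted p = 0.0158) on A_52_P214630 and −0.91 ± 0.18 (adjusted p = 0.0182) on A_52_P577484, both just short of 2-fold. The junction probe gave −0.84 ± 0.31 (adjusted p = 0.111). In all 0 of 6 SOX probes were called with the fold requirement, beside 1.93% of all probes (0.651% lower), and 2 were lower at adjusted p under 0.05, beside 8.9% of all probes in either direction and 5.31% lower, while 3 had an unadjusted p under 0.05. With slide as a term the 3 values were −1.05, −0.62 and −1.35, with adjusted p between 0.136 and 0.26, and with the normexp correction A_52_P214630 and A_52_P577484 had an adjusted p of 0.652 and 0.653.

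**Figure D3:**
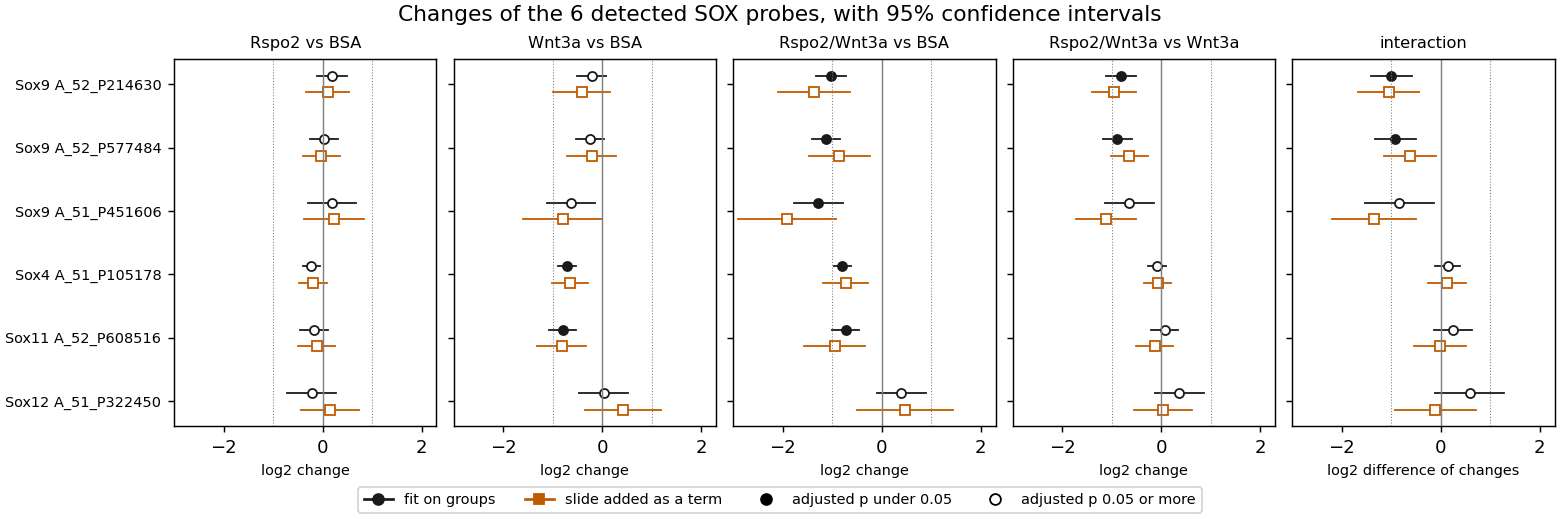
Log2 change with its 95% confidence interval for the 6 detected SOX probes in the 5 comparisons, from the limma fit on the groups (black) and with slide added as a term (orange), filled where the adjusted p was under 0.05; dotted lines mark 2-fold. The 3 *Sox9* probes are filled in black for Rspo2/Wnt3a against BSA, *Sox4* and *Sox11* are filled for both comparisons of Wnt3a-treated cells with BSA, and 0 of the 6 are filled in orange.

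The SOXC genes *Sox4* and *Sox11* are shown with the 250 bases upstream of their transcription start, because they fell together with Wnt3a. Both lie on the minus strand of GRCm38.p6 and the sequences, from RefSeq annotation, run 5′ to 3′ toward the start, *Sox4* at chr13:28953700-28953949 and *Sox11* at chr12:27342719-27342968. Capitals mark each match to CCAAT, the core of sites of the factor NF-Y, on either strand.
Sox4: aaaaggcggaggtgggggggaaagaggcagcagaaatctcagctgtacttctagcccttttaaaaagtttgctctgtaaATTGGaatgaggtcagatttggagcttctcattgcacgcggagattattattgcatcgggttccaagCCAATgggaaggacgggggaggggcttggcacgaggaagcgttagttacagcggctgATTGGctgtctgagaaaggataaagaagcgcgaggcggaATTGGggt
Sox11: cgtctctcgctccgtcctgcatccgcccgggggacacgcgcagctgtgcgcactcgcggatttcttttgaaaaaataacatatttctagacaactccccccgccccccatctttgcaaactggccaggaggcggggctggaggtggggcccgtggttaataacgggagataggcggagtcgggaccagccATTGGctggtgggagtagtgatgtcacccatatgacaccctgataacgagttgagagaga

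The *Sox4* window held 4 such matches, 1 forward and 3 reverse, and the *Sox11* window 1, in reverse, 60 bases before the start. The windows of *Sox12*, whose changes passed no test, and of *Sox2* also held a match, as did 2 of the 6 windows of *Sox6*. A match was found in 33.8% of the 32851 upstream windows of the same length. The letters CTTTGA, a core of TCF/LEF sites, were on either strand in 13.8% of all windows. The letters ACAAT, a core of SOX sites, were in 27.7%. Neither stood in the *Sox4* or the *Sox11* window. Promoter windows were found for 7 of the 10 genes, and those of *Sox7*, *Sox9* and *Sox18* were not used here.

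*Sox4*, on chromosome 13 (chr13:28948919-28953699), was read by probe A_51_P105178. Its level was 1.14, 1.22 and 0.97 on the BSA arrays, 0.92, 0.90 and 0.84 with Rspo2, 0.43, 0.39 and 0.39 with Wnt3a, and 0.24, 0.41 and 0.30 with Rspo2/Wnt3a. The groups were tightly spaced in steps, with the BSA arrays highest, each Rspo2 array under each BSA array, and the Wnt3a and Rspo2/Wnt3a arrays lowest and overlapping.

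The log2 change of *Sox4* was −0.71 ± 0.08 with Wnt3a (SE, adjusted p = 0.000327) and −0.79 ± 0.08 with Rspo2/Wnt3a (adjusted p = 4.32e-05), short of 2-fold in both. With Rspo2 alone it was −0.22 ± 0.08, with an unadjusted p of 0.0176 and an adjusted p of 0.075. Rspo2/Wnt3a differed from Wnt3a by −0.08, with a 95% confidence interval from −0.26 to 0.09, so that any further decrease of *Sox4* in the combination was smaller than the one with Wnt3a. The interaction was 0.14 ± 0.11 (adjusted p = 0.435).

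*Sox11*, on chromosome 12 (chr12:27334268-27342718), had 6 probes, of which A_52_P608516, the one nearest to the 5′ end, was detected. The other 5 started 1364 to 7409 bases downstream of it and were well above background on 0 of 12 arrays, so the level of *Sox11* rests on 1 probe. Their median intensities were 4.76 to 5.66, against 220 for A_52_P608516. The paper describes labeling primed with a d(T) oligonucleotide, that is from the 3′ end. Whether the signal of A_52_P608516 comes from the *Sox11* transcript was not tested. Its level was −1.41, −1.59 and −1.80 with BSA, −1.72, −1.82 and −1.79 with Rspo2, −2.60, −2.40 and −2.19 with Wnt3a, and −2.34, −2.19 and −2.45 with Rspo2/Wnt3a. As with *Sox4*, the 2 groups with Wnt3a lay under all BSA and Rspo2 arrays and overlapped each other.

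The log2 change of *Sox11* was −0.80 ± 0.13 with Wnt3a (adjusted p = 0.00166) and −0.73 ± 0.13 with Rspo2/Wnt3a (adjusted p = 0.00131). It was −0.18 ± 0.13 with Rspo2 (adjusted p = 0.348), and Rspo2/Wnt3a differed from Wnt3a by 0.07 (95% confidence interval −0.20 to 0.35). The interaction was 0.25 ± 0.18 (adjusted p = 0.377). Over the 12 arrays the levels of *Sox4* and *Sox11* had a Pearson r of 0.94, against 0.74 to 0.91 among the 3 *Sox9* probes, a description that carries the group differences and the slides that all of these arrays share.

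In the comparison of Wnt3a with BSA, 0 of the 6 SOX probes were called in limma, beside 2.52% of all probes (2.11% lower), and the methods' t-test also called 0. At adjusted p under 0.05 with no fold requirement, 2 were lower, *Sox4* and *Sox11*, beside 31.5% of all probes in either direction and 13.2% lower, and 3 had an unadjusted p under 0.05. The groups did not overlap for 3 of the 6 probes, as for 45.5% of all probes. With slide as a term *Sox4* was at −0.66 (adjusted p = 0.118) and *Sox11* at −0.82 (adjusted p = 0.147) with Wnt3a, and at −0.73 (adjusted p = 0.114) and −0.95 (adjusted p = 0.13) with Rspo2/Wnt3a. On slide 2, the mean of Wnt3a replicates 1 and 2 was below that of Rspo2 replicates 2 and 3 by −0.46 for *Sox4* and −0.70 for *Sox11*, and on slide 3 Rspo2/Wnt3a differed from Wnt3a replicate 3 by −0.07 and −0.13. With the normexp correction the changes with Wnt3a were −0.52 for *Sox4* (adjusted p = 0.103) and −0.73 for *Sox11* (adjusted p = 0.219).

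*Sox12*, the other SOXC gene (chr2:152393611-152398046), was read by probe A_51_P322450 at intensities of 41.7 to 98.9. The level was −3.63, −4.13 and −3.75 with BSA, −3.69, −4.40 and −4.08 with Rspo2, −4.21, −3.72 and −3.48 with Wnt3a, and −3.25, −3.42 and −3.65 with Rspo2/Wnt3a, so that every group overlapped BSA. The log2 change was −0.22 ± 0.22 with Rspo2, 0.03 ± 0.22 with Wnt3a and 0.40 ± 0.22 with Rspo2/Wnt3a (adjusted p 0.517, 0.924 and 0.184). The 95% confidence interval of the last, −0.09 to 0.89, holds 0. Fitted with a slide term the change was 0.47 with an interval from −0.50 to 1.44, with quantile normalization it was 0.62 and passed the test (adjusted p = 0.0202), and with the normexp correction it was −0.07 (adjusted p = 0.943), so that *Sox12* has no settled direction. The change with Rspo2 also turned, to 0.51 with the normexp correction and 0.15 with slide as a term.

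With Rspo2 alone, 0 of the 6 detected SOX probes were called in limma, beside 0.721% of all probes (0.62% lower), and 0 had an adjusted p under 0.05, beside 16.8% of all probes in either direction and 5.92% lower. *Sox4* was the 1 probe with an unadjusted p under 0.05 and also the 1 probe whose groups did not overlap, as for 43.5% of all probes. The methods' t-test called 0.

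The SOXD genes had 9 probes, 0 of them detected. *Sox6*, which acts with *Sox5* and *Sox9* in cartilage, had single bright arrays on 3 of its 5 probes. Its brightest probe, A_52_P25089, had intensities of 43.5, 18.6 and 88.6 with BSA, 19.1, 20.9 and 14.7 with Rspo2, 7.34, 6.82 and 11.7 with Wnt3a, and 28.8, 10.2 and 6.86 with Rspo2/Wnt3a, and was well above background in BSA replicates 1 and 3 and Rspo2/Wnt3a replicate 1. The Wnt3a arrays of this probe were all under the BSA arrays, but 9 of its 12 values were not well above background. Probe A_52_P394652 was well above background in BSA replicate 1 (128) and Rspo2/Wnt3a replicate 1 (35.7), and probe A_52_P282171 in Rspo2 replicates 2 (123) and 3 (16.4). Both arrays of probe A_52_P394652 were thus also marked by A_52_P25089, whereas those of A_52_P282171 were not, and the other 2 *Sox6* probes were well above background on 0 of 12 arrays.

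*Sox5*, the closest relative of *Sox6*, was well above background with 1 of its 3 probes on 1 array, Rspo2/Wnt3a replicate 1, at an intensity of 22.9. Its brightest probe, A_52_P352356, had intensities of 14.1, 10.0 and 8.66 with BSA, 12.5, 7.05 and 3.27 with Rspo2, 5.55, 5.68 and 5.42 with Wnt3a, and 5.26, 5.32 and 5.86 with Rspo2/Wnt3a. *Sox13*, a SOXD gene with roles in T cells, had 4.92, 9.09 and 7.86 with BSA, 11.5, 7.51 and 3.35 with Rspo2, 5.54, 5.64 and 5.08 with Wnt3a, and 4.38, 4.89 and 5.47 with Rspo2/Wnt3a.

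The undetected probes shared an order of arrays. Rspo2 replicate 3 gave the lowest intensity of the 12 arrays on 15 of the 18 probes, and Rspo2 replicate 1 the highest on 10, and these 2 arrays also had the lowest and the highest intensity at which any probe passed as well above background, 15.4 and 43.8. Of the SOXF genes, *Sox18* had 4.43, 8.51 and 7.29 with BSA, 9.18, 5.47 and 3.15 with Rspo2, 4.31, 4.11 and 4.15 with Wnt3a, and 3.96, 4.19 and 4.75 with Rspo2/Wnt3a. *Sox7*, on its brighter probe A_51_P476018, had 7.98, 11.6 and 8.26 with BSA, 21.3, 6.51 and 3.14 with Rspo2, 4.86, 4.92 and 5.25 with Wnt3a, and 11.3, 5.04 and 5.59 with Rspo2/Wnt3a.

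*Sox2* followed the same order of arrays, with 5.04, 9.33 and 8.06 with BSA, 11.9, 7.47 and 3.28 with Rspo2, 5.70, 5.72 and 5.23 with Wnt3a, and 4.42, 5.00 and 5.66 with Rspo2/Wnt3a. No group had all 3 arrays well above background for *Sox2*, *Sox5*, *Sox6*, *Sox7*, *Sox13* or *Sox18*, and no fold is given for them.

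By a rule that takes, for each member with a called probe, the genes most like it over the 12 arrays, the probe of *Sox9* with the largest called change, A_51_P451606, was followed most closely among 18707 probes by *Cited2* (Pearson r = 0.972), *BC065397* (r = 0.971) and *Rora* (r = 0.966). The 12 arrays share the group differences and the slides.

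Of 10 other SOX genes on the array, *Sry*, *Sox1*, *Sox3*, *Sox8*, *Sox10*, *Sox14*, *Sox15*, *Sox17*, *Sox21* and *Sox30*, 5 had a detected probe and 0 were called in limma against BSA. *Sox10* was higher with Wnt3a by 0.63 ± 0.16 (adjusted p = 0.0132) and *Sox15* by 0.32 ± 0.09 (adjusted p = 0.018), both short of 2-fold and opposite in sign to *Sox4* and *Sox11*, and neither passed the test with Rspo2/Wnt3a (adjusted p = 0.0797 and 0.065). The slide fit gave 0.81 and 0.37 for them with Wnt3a (adjusted p = 0.311 and 0.312). The *Sox10* probe was near background, with a median intensity of 50.5, and the other *Sox10* probe was well above background on 0 arrays. *Sox8*, the closest relative of *Sox9*, was well above background on the 3 Rspo2/Wnt3a arrays and on 1 BSA array with 1 of its 2 probes, at intensities up to 67.1, with no change against BSA that passed the test (adjusted p = 0.178). It passed the filter only through the group where it was high and was well above background on 0 arrays with Rspo2 or Wnt3a alone, so nothing is read from its interaction.

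Sox9 protein activates cartilage matrix genes, and 10 of 13 such targets were on the array by these names, of which 6 had a detected probe. *Comp*, a cartilage matrix protein, was lower, by −1.001 ± 0.14 with Wnt3a (adjusted p = 0.00101) and −1.69 ± 0.14 with Rspo2/Wnt3a (adjusted p = 1.14e-05). *Col2a1*, the main collagen of cartilage, was called lower with Rspo2 (−1.04 ± 0.28, adjusted p = 0.0347) and with Wnt3a (−1.09 ± 0.28, adjusted p = 0.0145) on probe A_51_P317141, where *Sox9* was not called, and not with Rspo2/Wnt3a (−0.55 ± 0.28, adjusted p = 0.149), and its brighter probe A_52_P216436 was not called in these comparisons. *Col11a2* was lower with Wnt3a, by −0.56 ± 0.15 (adjusted p = 0.0198), and with Rspo2/Wnt3a, by −0.49 ± 0.15 (adjusted p = 0.0272). In the fit with slide *Comp* was at −0.99 with Wnt3a (adjusted p = 0.171) and −1.75 with Rspo2/Wnt3a (adjusted p = 0.0394), and *Col2a1* on A_51_P317141 and *Col11a2* had adjusted p of 0.978 and 0.497 with Wnt3a. The genes *Col9a2*, *Col9a3* and *Col11a1* passed no test against BSA. With Rspo2/Wnt3a 1 of the 6 genes was called, beside 5.08% of all probes (3.79% lower), and the median change of the 6 was −0.41, against 0.04 over all probes. The 7 detected probes of these genes were dim, with median intensities of 44.4 to 122, and other probes of *Col2a1*, *Col11a1* and *Col11a2* were not detected. The part of *Sox9* in these changes was not tested.

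TCF/LEF factors, the partners of β-catenin on DNA, were on the array with 3 genes by name. Of these 2 were detected, and with Rspo2/Wnt3a both were higher at adjusted p under 0.05, 1 of them by 2-fold. *Tcf7* was higher with Rspo2/Wnt3a by 2.57 ± 0.12 and 2.69 ± 0.15 on its 2 probes (adjusted p = 2.99e-07 and 6.74e-07), *Tcf7l2* by 0.74 ± 0.08 on its brightest probe (adjusted p = 7.46e-05), and *Lef1* was detected with 0 of its 3 probes. Allowing for slide, *Tcf7* was at 2.92 and 2.75 (adjusted p = 0.00134 and 0.00547) and *Tcf7l2* at 0.73 (adjusted p = 0.112).

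The label of the cells was checked against markers. Basal and myoepithelial markers were detected for 4 of 5 genes (*Krt5*, *Krt14*, *Trp63* and *Acta2*) and mesenchymal markers for 6 of 6, whereas among luminal markers only *Krt8* was detected of 4 on the array, with *Krt18*, *Krt19* and *Cdh1* undetected. Over the whole lists, the summed level of the luminal genes, in multiples of the 75th percentile of the array, was 0.179 to 0.263 with BSA and 0.0923 to 0.158 with Rspo2/Wnt3a, that of the basal genes 209 to 221 and 375 to 419, and that of the mesenchymal genes 237 to 256 and 245 to 249. With Rspo2 and with Wnt3a alone the luminal sums were 0.172 to 0.187 and 0.117 to 0.148, and the basal sums 273 to 303 and 317 to 332. The basal sum was thus higher than with BSA in each treatment, and the luminal sum was lower in both groups with Wnt3a. The part of these sums in the SOX decreases was not tested. The sums are carried by their brightest probes, and their genes did not move together with Rspo2/Wnt3a. The luminal sum is near background, with median intensities of 44.4 and 55.0 for *Krt8* and 7.24 to 19.5 for the undetected luminal genes. The lowest intensity that passed as well above background was 21.9 to 42.4 on the BSA arrays and 19.0 to 23.3 with Rspo2/Wnt3a. *Krt8* changed by −1.15 ± 0.16 (adjusted p = 0.000366) on its brighter probe. Of the 4 detected basal genes 2 were higher and 1 lower at adjusted p under 0.05 by their brightest probe. *Acta2* was higher by 0.78 to 1.39 on its 4 detected probes (adjusted p 1.27e-05 to 0.000126), while *Trp63* was at −0.40 ± 0.11 on its brightest probe (adjusted p = 0.0143) and at 0.49 and −0.74 on its other probes (adjusted p = 0.00565 and 0.00389). Of the 6 mesenchymal genes 3 were lower and 0 higher, namely *Pdgfra* at −1.37 ± 0.11 (adjusted p = 8.77e-06), *Col3a1* at −0.85 ± 0.15 (adjusted p = 0.00156) and *Pdgfrb* at −0.60 ± 0.11 (adjusted p = 0.0015). With slide as a term *Krt8* was at −1.25 (adjusted p = 0.151), *Acta2* at 0.63 to 1.59 with 2 of 4 probes under 0.05, *Trp63* at −0.31 (adjusted p = 0.632), *Pdgfra* at −1.32 (adjusted p = 0.0458), *Col3a1* at −0.54 (adjusted p = 0.489) and *Pdgfrb* at −0.46 (adjusted p = 0.455). Of 6 endothelial markers *Cdh5* alone was detected, and *Pecam1*, *Kdr*, *Tek*, *Tie1* and *Emcn*, genes of the tissue in which *Sox7* and *Sox18* act, were not.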

How the data were processed

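RNA of 12 monolayers was labeled with a single dye and hybridized to 1 array each. The deposited intensity values came from Agilent Feature Extraction 9.5.3.1, per the submitters' processing notes, after background subtraction, and these files also flag each spot. The other deposited table holds ratio values, each signal divided by the 75th percentile of its array, used here on a log2 scale as an alternative.

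Spots marked as uneven or as outliers (1327 of 520548 values, 0 of SOX probes) were left out, spots of a probe were averaged, and the array's 75th percentile was subtracted on the log2 scale. A probe printed several times was well above background on an array when at least 0.5 of its spots were. The tests used limma 3.58.1 (R 4.3.3), in 1 fit over 4 groups with 8 residual degrees of freedom, checked on data simulated with independent noise on each array. The simulation held no slide effect, so it cannot show how the test behaves with the slides of this design. The 75th percentile intensity was 774 to 1146, and signal over background and the number of arrays limit the precision. Symbols are those of the scanner files, and 17 of the 24 probes had an accession in RefSeq, 17 with the same symbol. The build of the listed probe positions is not given in the sources used here, so distances alone are given. Probe values on each array are printed for probes called in any comparison and for 1 probe of each other member, its brightest. Alternatives were other background corrections, scalings, filters, flags, tests and terms, and leaving out each array. The members, which include *Sox9*, a gene that the study listed from these arrays, and the gene lists were chosen with earlier results of these data known. Protein sequences were not used here.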

Additional observations from a re-analysis of the deposited data

Results flagged for a closer look

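In the fit on groups, the change of *Sox9* with Rspo2 differed between cells without and with Wnt3a on 2 of its 3 probes, short of the 2-fold requirement. In limma the interaction was −0.99 on probe A_52_P214630 (adjusted p = 0.0158) and −0.91 on probe A_52_P577484 (adjusted p = 0.0182), and the third probe had the same sign with an adjusted p of 0.111. With slide as a term none of the 3 had an adjusted p under 0.05 (0.136 to 0.26). With the normexp correction A_52_P214630 and A_52_P577484 had an adjusted p of 0.652 and 0.653.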

How the results depend on the processing

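Of 11 changes of single SOX probes with an adjusted p under 0.05, each kept its negative sign in those of 14 alternatives and 12 omissions of an array in which it was tested, and 239 of 269 values kept an adjusted p under 0.05. The other 30 values came from slide as a term (11 of 11 changes), the normexp background correction (7 of 11), the methods' t-test after adjustment (7 of 9), no filter on dim probes (2, both interactions of *Sox9*, adjusted p 0.0711 and 0.0817), the fit on the arrays of the 2 groups (1), the replicate block (1) and leaving out Rspo2/Wnt3a replicate 2 (1). The filters on dim probes and the detection flag left each log2 change as it was by construction. The methods' t-test, the fit on 2 groups and the replicate block did so too. Leaving out an array outside the groups of a comparison also left its change as it was. The sign could not turn in these, so neither the shared sign nor the 239 of 269 measures robustness. The count of called SOX probes with Rspo2/Wnt3a against BSA was 3, and became 0 with slide as a term, 1, A_52_P214630, with the methods' t-test after adjustment (3 without it) and 5 with no fold requirement. With no fold requirement the counts were 2 for Wnt3a, 2 for Rspo2/Wnt3a against Wnt3a and 2 for the interaction, in place of 0, and the authors' table gave 1 for the interaction. The cause of these differences was not tested, other than the fold requirement by construction. Leaving out an array gave 0 to 0 probes with Rspo2, 0 to 1 with Wnt3a, 2 to 4 with Rspo2/Wnt3a, 0 to 1 against Wnt3a and 0 to 1 for the interaction. For the interaction 7 of the 12 omissions gave 1 called probe, a *Sox9* probe each time, so its count of 0 sits at the 2-fold limit. The call with Wnt3a and the fourth with Rspo2/Wnt3a came without BSA replicate 2, the BSA array on which *Sox6* probe A_52_P25089 was not well above background. The probe then passed the filter through BSA, the group where it was high, so these calls are no result about *Sox6*. The call against Wnt3a was *Sox9* probe A_52_P577484 without Wnt3a replicate 3 or without Rspo2/Wnt3a replicate 3.

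Replicate numbers were not taken as pairs. Of 18 pairs of same-numbered arrays 4 correlated over 0.1 in their deviations from the group means (−0.413 to 0.271). Arrays of different numbers were not compared, so this check does not settle whether the samples were paired. With the replicate number as a block the counts of called probes were 0, 0, 3, 0 and 0, as without it, and the interaction of A_52_P577484 had an adjusted p of 0.0506. The scaling by probes well above background on all arrays moved the median of all probes with Wnt3a to −0.12, and that of the interaction to 0.10, and the normexp correction moved those with Rspo2 and of the interaction to 0.15 and −0.16. The 11 changes kept their sign under each. Changes that did not pass above but did in an alternative were those of *Sox12* with Rspo2/Wnt3a, of the *Sox9* junction probe with Wnt3a and of *Sox4* with Rspo2. Probes near background, *Sox12* among them, are limited by signal.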
